A study of Mus musculus with 18 samples.

Results

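The effect of *Kmt2d* loss was compared between the mouse mammary tumour cell lines 67NR and 168FARN, both described as non-metastatic, by RNA-seq. The comparison used 12 of the 18 libraries of the study, namely the 3 WT and 3 *Kmt2d* KO libraries of each line; the other 6 libraries, of *Kmt2c* KO cells, entered the model only to estimate the spread. For each gene, the change from WT to *Kmt2d* KO in 168FARN was subtracted from the same change in 67NR, so that a positive log2 difference means a higher response in 67NR. KO cells were made by transient transfection of Cas9 with a pool of 3 guide RNAs and were sorted pools of cells, not clones. The WT libraries of 168FARN are named after a control guide in the count table, whereas those of 67NR are named WT only, and whether the controls were handled alike cannot be told from these names. By the methods of the study, the replicates of a group were taken from the same cells at successive passages, and p-values therefore measure the spread between collections of 1 pool, not between separately made pools.

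KMT2D is a histone methyltransferase of the COMPASS family that places monomethyl marks on lysine 4 of histone H3, chiefly at enhancers. It works in a complex with the H3K27 demethylase KDM6A and shares much of its function with KMT2C. Enhancers are used selectively by cell type, and the genes that depend on KMT2D therefore differ between tissues. The 2 lines offer different starting points, because the 67NR libraries contained RNA of epithelial junction and keratin genes and the 168FARN libraries contained almost none. Of 34 such genes tested, 31 were below 1 count per 1000000 counts (CPM) on average in the 6 libraries of 168FARN, and all 34 exceeded 1 CPM in 67NR WT and in 67NR *Kmt2d* KO.

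The guides are shown because they define what was cut in both lines. Each matched 1 site on the plus strand of chromosome 15 in genome build mm9, within the annotated exon 1 of *Kmt2d* (listed there as *Mll2*, chr15:98662100-98701614, minus strand). Most other chromosomes were not searched, so matches elsewhere in the genome are not excluded. Letters in capitals are the adjacent PAM read from the genome, and the G that sg1 and sg2 carry at their 5′ end was left off because the genome does not have it.
sg1 (chr15:98701571-98701590): acggtaaatccaggtcggagTGG
sg2 (chr15:98701464-98701483): gaaatcctcatccgagaacaTGG
sg3 (chr15:98701587-98701607): ggagtggtcacccttcccccgGGG
Exon 1 (chr15:98701445-98701614) is annotated as untranslated in the 1 transcript of that annotation, and the annotated start codon lies in exon 2 (chr15:98697149-98697151). *Kmt2d* RNA was not lower in KO cells of either line. Its level was 116, 101 and 85 CPM in 67NR WT against 94.2, 147 and 97.3 CPM in 67NR *Kmt2d* KO, and 171, 170 and 112 CPM in 168FARN WT against 313, 276 and 144 CPM in 168FARN *Kmt2d* KO. The 67NR groups overlapped, as did the 168FARN groups, and the change was not called in either line by edgeR (log2 0.16 ± 0.31 (SE) in 67NR and 0.69 ± 0.31 in 168FARN, adjusted p = 0.8 in both). With replicate numbers as a block, explained below, the rise in 168FARN was called (adjusted p = 0.02). RNA counts over the whole gene therefore do not check the editing. The paper checked it otherwise. It reports that all or nearly all *Kmt2d* reads of the targeted regions were mutant in both lines, and that immunoblots showed less protein.

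Library totals were 14359760 to 43427382 counts in 168FARN and 44946005 to 79251530 in 67NR. *Rn45s*, the ribosomal RNA precursor, made up 28.74% of the counts of 67NR *Kmt2d* KO replicate 3 and 0.59% to 3.1% in the other 11 libraries, and was dropped. Replicate 3 of each group stood apart from replicates 1 and 2, most visibly in proliferation genes. Within a line, replicate 3 of WT and of *Kmt2d* KO moved together. Replicates 1 and 2 moved together as well, whether or not their numbers matched. A second model with the replicate number as a block is therefore given beside the results that it changed. The median SE of a gene's log2 change was 0.352 in 67NR and 0.349 in 168FARN, and 0.164 in both with the block. Levels are given in CPM and compare a gene across libraries, not different genes. KO pools may differ in their mix of cells, and in bulk RNA fewer cells of a type cannot be told apart from less RNA per cell.

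*Kmt2d* KO changed far more genes in 67NR than in 168FARN. Most of the genes whose response differed passed the test in 67NR and not in 168FARN. In edgeR's quasi-likelihood test over 13859 genes, a change was called at an adjusted p under 0.1 when it also exceeded 0.6 in size on the log2 scale. The difference between lines was called for 1437 genes (10.4% of those tested), of which 944 had the higher response in 67NR (6.81%) and 493 the lower (3.56%). In 67NR, 2835 genes were called (20.5%), with 1525 higher (11%) and 1310 lower (9.45%). In 168FARN, 131 genes were called (0.945%), with 46 higher and 85 lower. Before adjustment, 4030 genes in 67NR and 818 in 168FARN had a p under 0.05. With the replicate block the counts were 3915 for the difference (28.2%), 4602 for 67NR (33.2%) and 676 for 168FARN (4.88%). Without replicate 3 of every group they were 4540, 4927 and 1386. Leaving out 168FARN WT replicate 1 or 2, or 168FARN *Kmt2d* KO replicate 1 or 2, lowered the 168FARN count to 68, 69, 74 and 73.

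**Figure D1:**
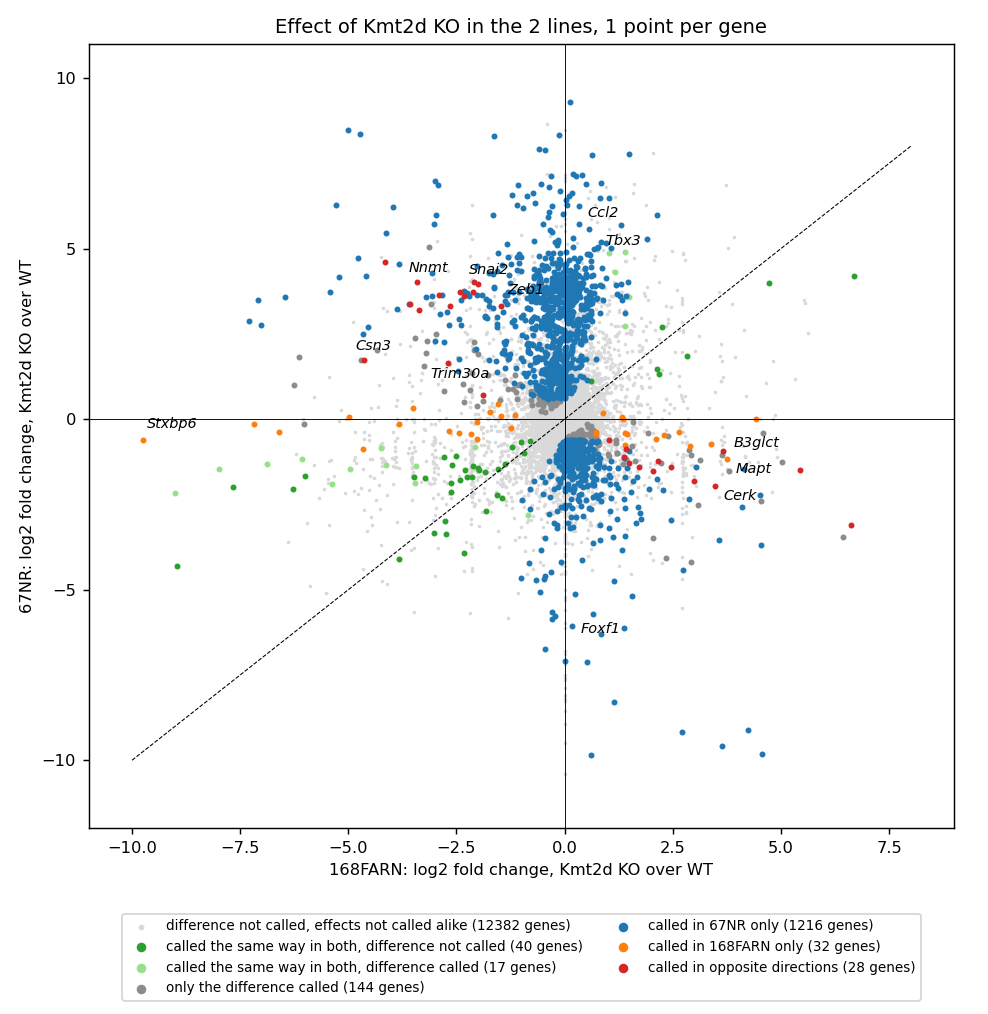
Change from WT to *Kmt2d* KO in 168FARN (x axis, log2) and 67NR (y axis, log2), 1 point per gene tested and coloured by which changes were called; the dashed line marks equal change in both lines. Most coloured points run along the vertical axis, the 1216 genes called in 67NR only, and the 28 genes in red lie in the upper left and lower right parts.

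The 1437 genes fell into classes. A response in 67NR only, meaning a call in 67NR and in the difference but not in 168FARN, was found for 1216 genes, of which 826 rose and 390 fell. For 899 of the 1216, the fitted change in 168FARN was also below the fold threshold. A response in 168FARN only was found for 32 genes, of which 15 rose and 17 fell. Opposite responses, each called in its line, were found for 28 genes, of which 15 rose in 67NR and fell in 168FARN and 13 did the reverse. Another 17 genes moved the same way in both lines by different amounts, and 144 were called for the difference but in neither line. With the block, the responses in 67NR only, in 168FARN only and in opposite directions counted 2687, 165 and 182 genes, those in the same direction by different amounts 97, and those called for the difference alone 784. A further 1574 genes were called in 67NR and 54 in 168FARN without a called difference, and 40 genes were called the same way in both lines with no called difference, or 148 with the block, where 28 of the 40 kept this class. For these genes a response particular to 1 line was not shown.

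The levels of the classes are a description, since a class chosen for its rise or fall in 67NR tends to start low or high there. The genes higher in 67NR only had a median level of 1.28 CPM in 67NR WT and 10.9 CPM in 67NR *Kmt2d* KO, beside 11.4 CPM in 168FARN WT and 10.8 CPM in 168FARN *Kmt2d* KO. Of the 826, 149 were below 1 CPM in both 168FARN groups. The genes lower in 67NR only had medians of 40.7, 16.2, 13.9 and 15.7 CPM in the same order, and 65 of the 390 were below 1 CPM in both 168FARN groups.

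Among the genes higher in 67NR only, those with the smallest p for the difference were *Epb41l3*, *B3galt1* and *Arhgef10*. *Epb41l3*, a band 4.1 protein that links membranes to the cytoskeleton, was at 7.35, 9.66 and 7.68 CPM in 67NR WT and at 140, 142 and 138 CPM in 67NR *Kmt2d* KO. In 168FARN it was at 244, 232 and 193 CPM in WT and at 185, 165 and 146 CPM in *Kmt2d* KO. The groups did not overlap in either line, which in 67NR was a condition of naming the gene. Only the rise in 67NR was called (log2 4.09 ± 0.18, adjusted p = 3.5e-09, against -0.43 ± 0.16, adjusted p = 0.49). The difference was 4.52 ± 0.23 (adjusted p = 4.2e-08). *B3galt1*, a galactosyltransferase of glycan synthesis, rose from 0.819, 0.714 and 0.692 CPM to 11, 10.9 and 10.2 CPM in 67NR, and was at 9.98, 11.6 and 9.88 CPM and then at 7.02, 6.66 and 7.16 CPM in 168FARN (difference 4.44 ± 0.26, adjusted p = 1.1e-07). *Arhgef10*, a guanine nucleotide exchange factor, rose from 0.651 to 0.714 CPM in 67NR WT to between 9.63 and 13.8 CPM in 67NR *Kmt2d* KO, while all 6 libraries of 168FARN lay between 31.9 and 40.9 CPM. In each of these 3 genes, 67NR WT lay far below the 168FARN level and 67NR *Kmt2d* KO lay nearer to it. For *B3galt1*, 67NR *Kmt2d* KO overlapped 168FARN WT and ended above 168FARN *Kmt2d* KO.

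The genes lower in 67NR only with the smallest p were *Tacc1*, *Foxf1* and *Ly6e*. *Foxf1*, a forkhead transcription factor of mesenchyme, fell from 4.46, 4.39 and 6.34 CPM to 0.0382, 0 and 0.204 CPM in 67NR, and was at 46.2, 45.9 and 50.9 CPM in 168FARN WT and 53.7, 46.8 and 60.4 CPM in 168FARN *Kmt2d* KO. It was thus nearly lost in 67NR and remained high in every 168FARN library (difference -6.24 ± 0.69, adjusted p = 2.3e-05). *Ly6e*, a membrane-anchored protein induced by interferon, fell from 156, 126 and 66 CPM to 10.8, 12.4 and 15.9 CPM in 67NR and ranged from 244 to 280 CPM in WT and from 244 to 369 CPM in *Kmt2d* KO of 168FARN (difference -3.35 ± 0.4, adjusted p = 5.7e-05). *Tacc1*, a coiled-coil protein of the centrosome and microtubules, was similar in both WT groups, at 10.9 to 14.5 CPM in 67NR and 10.6 to 12.7 CPM in 168FARN. Its level was 1.43 to 1.68 CPM in 67NR *Kmt2d* KO and 8.46 to 10.4 CPM in 168FARN *Kmt2d* KO (difference -2.8 ± 0.28, adjusted p = 9.5e-06). In *Foxf1*, *Ly6e* and *Tacc1*, 67NR *Kmt2d* KO thus moved away from the 168FARN level.

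The 32 genes that responded in 168FARN only were led by *Mid1*, *Mapt* and *Vtcn1* among those that rose. *Mid1*, a microtubule-associated ubiquitin ligase, was at 34.6, 29.5 and 31.3 CPM in 168FARN WT and 97.3, 87.6 and 74.3 CPM in 168FARN *Kmt2d* KO, against 24.6, 26.1 and 21.8 CPM and then 18.4, 21.2 and 14.4 CPM in 67NR. The rise in 168FARN was called (log2 1.44 ± 0.21, adjusted p = 0.0027) and the change of -0.43 ± 0.2 in 67NR was not (adjusted p = 0.18). *Mapt*, which encodes the microtubule protein tau, rose from 0.107, 0.286 and 0.2 CPM to 3.44, 3.74 and 1.06 CPM in 168FARN, and *Vtcn1*, the immune checkpoint ligand B7-H4, rose from 0.781, 1.21 and 0.625 CPM to 5.41, 10.1 and 4.07 CPM. In 67NR, *Mapt* was at 6.47 to 7.68 CPM in WT and 2.2 to 4.2 CPM in *Kmt2d* KO, and *Vtcn1* was at 3.8 to 6.99 CPM and 3.24 to 3.28 CPM. With the block both falls in 67NR were called, which puts *Mapt* and *Vtcn1* among the opposite responses, as it does *B630019K06Rik* and *Spns2*. The others that rose were *Sema3d*, *Prps2*, *Plp2*, *B630019K06Rik*, *Spns2*, *Il1r1*, *A630001G21Rik*, *Hspa12a*, *Cldn1*, *Slco4a1*, *Adm2* and *Ubl4a*.

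*Stxbp6*, *AI429214* and *Glipr2* led the genes that fell in 168FARN only. *Stxbp6*, which encodes the SNARE-binding protein amisyn, was at 2.24, 2.48 and 2.7 CPM in 168FARN WT and had no counts in the 3 libraries of 168FARN *Kmt2d* KO, at least 50-fold lower when the KO group is set to 3 counts (0.0494 CPM). In 67NR it was at 32.8, 32.8 and 18.4 CPM in WT and 24.3, 20.4 and 10.6 CPM in *Kmt2d* KO, groups that overlapped (log2 -0.6 ± 0.36, adjusted p = 0.31); with the block this fall was called too, in the same direction and smaller. *AI429214*, a gene without a settled name, fell from 5.58 to 6.96 CPM to 1.72 to 2.39 CPM in 168FARN and was at 7.66 to 8.83 CPM and 10.6 to 11.7 CPM in 67NR (difference 1.99 ± 0.29, adjusted p = 0.00033). *Glipr2*, a Golgi-associated protein, fell from 27, 26.8 and 21.9 CPM to 5.82, 11 and 6.1 CPM in 168FARN and was at 24 to 26.9 CPM and 26.2 to 32.4 CPM in 67NR (difference 1.93 ± 0.35, adjusted p = 0.0023). The starting levels of *Glipr2* were close in the 2 lines. *Igf2*, a fetal growth factor named here after its values were seen, fell from a mean of 133 CPM to 11.8 CPM in 168FARN and was near 1 CPM in 67NR (0.668 and 0.863 CPM). The other genes were *Hecw2*, *Trim34a*, *Atp8b5*, *Marcks*, *Ahi1*, *Tmem141*, *Eif5a2*, *Zfp456*, *Gng2*, *Chmp4c*, *Eda*, *Pstpip2* and *Trim34b*, of which *Eda* also fell in 67NR with the block by a smaller amount, and reads of the neighbouring paralogs *Trim34a* and *Trim34b* may be split between them.

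The 15 genes that rose in 67NR and fell in 168FARN were *Tph2*, *Nnmt*, *Csn3*, *Snai2*, *Dach2*, *Rftn1*, *Myh3*, *Setbp1*, *Elovl4*, *Slc5a8*, *Trim40*, *Mdga2*, *Ptar1*, *Trim30a* and *Wdfy4*. All 15 kept this class with the block. *Snai2*, which encodes the epithelial-mesenchymal transition factor Slug, rose from 2.35, 2.97 and 2.01 CPM to 36.9, 37.5 and 40.4 CPM in 67NR (log2 3.97 ± 0.41, adjusted p = 6.1e-06). In 168FARN it fell from 6.89, 6.45 and 15.3 CPM to 2.8, 1.27 and 2.97 CPM (log2 -2.01 ± 0.39, adjusted p = 0.024). The KO groups of the 2 lines therefore ended far apart, with the lowest 67NR *Kmt2d* KO library at 36.9 CPM and the highest 168FARN *Kmt2d* KO library at 2.97 CPM (difference 5.97 ± 0.56, adjusted p = 4.7e-06). *Nnmt*, which methylates nicotinamide, went from 0.119 to 0.231 CPM up to 2.31 to 3.51 CPM in 67NR and from 4.07 to 4.6 CPM down to 0.275 to 0.469 CPM in 168FARN. *Csn3*, the milk protein kappa-casein, went from 27.3, 26.8 and 16.3 CPM to 80.1, 80.1 and 72 CPM in 67NR and from 5.57, 3.37 and 4.3 CPM to 0.0459, 0.0749 and 0.352 CPM in 168FARN (difference 6.35 ± 0.55, adjusted p = 2.4e-06). *Tph2*, tryptophan hydroxylase of serotonin synthesis, went from 1.3 to 2.05 CPM up to 13.1 to 20.2 CPM in 67NR and from 21.3 to 30.3 CPM down to 8.84 to 9.77 CPM in 168FARN. No groups overlapped within a line for these 4 genes, which for *Tph2*, *Nnmt* and *Csn3* was a condition of being named. The median levels over the 15 genes were 0.621 CPM in 67NR WT, 5.77 CPM in 67NR *Kmt2d* KO, 4.25 CPM in 168FARN WT and 0.398 CPM in 168FARN *Kmt2d* KO.

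**Figure D2:**
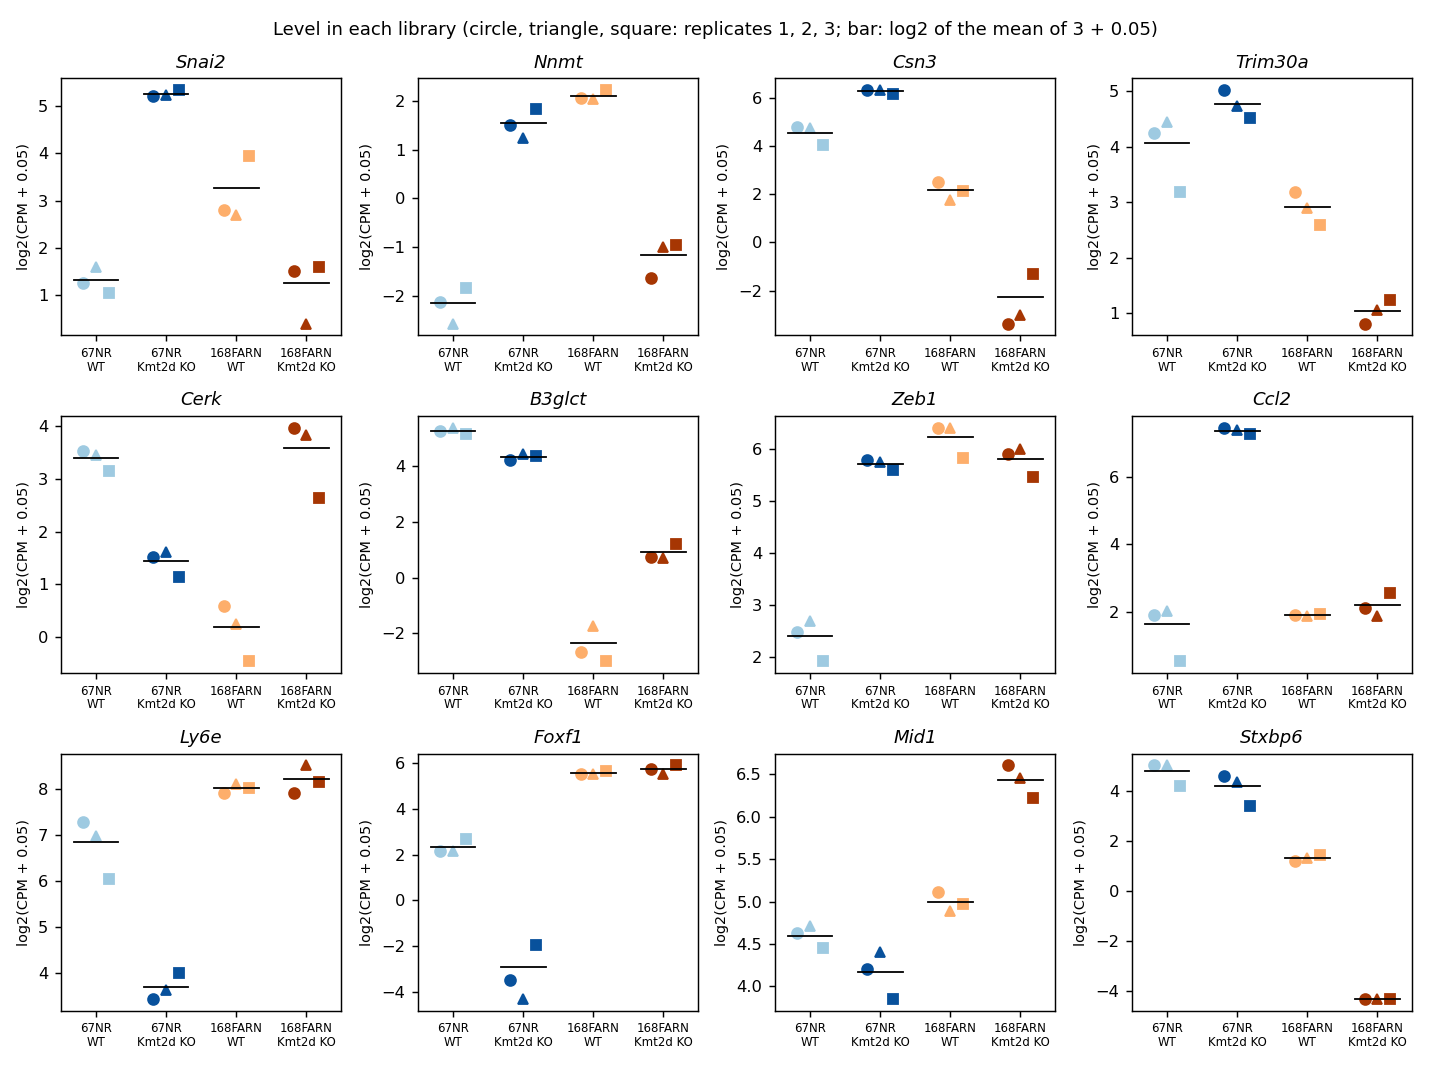
Level of 12 genes in each of the 12 libraries (y axis, log2 of CPM + 0.05; 1 panel per gene, replicates 1, 2 and 3 as circle, triangle and square, bar at the mean of 3). The top row and the first 2 panels of the middle row show opposite responses, such as *Snai2*. Its 67NR *Kmt2d* KO libraries lie at 36.9 to 40.4 CPM and its 168FARN *Kmt2d* KO libraries at 1.27 to 2.97 CPM. The other panels show genes called in 1 line only.

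The 13 genes with the reverse pattern included *B3glct*, *Cerk*, *Pdzrn3*, *4930523C07Rik*, *Ripk4*, *Flrt3*, *Susd1*, *Zfp275*, *Arhgap6*, *Gpa33*, *Kdelr3* and *Ston2*. All 13 kept this class with the block. *Cerk*, ceramide kinase, fell from 11.6, 10.9 and 8.85 CPM to 2.83, 3.01 and 2.14 CPM in 67NR and rose from 1.46, 1.14 and 0.675 CPM to 15.7, 14.3 and 6.22 CPM in 168FARN (difference -5.44 ± 0.57, adjusted p = 1.2e-05). The level of *Cerk* in 168FARN *Kmt2d* KO thus overlapped that of 67NR WT. In 67NR *Kmt2d* KO it fell towards that of 168FARN WT but stayed above it (means of 2.66 and 1.09 CPM). *B3glct*, which adds glucose to O-fucose on thrombospondin repeats, fell from 37.4, 41.1 and 35.4 CPM to 18.3, 21.6 and 20.3 CPM in 67NR and rose from 0.107, 0.254 and 0.075 CPM to 1.61, 1.57 and 2.27 CPM in 168FARN (difference -4.57 ± 0.41, adjusted p = 2.7e-06). *Pdzrn3*, a ubiquitin ligase with PDZ domains, fell from 84.4, 86.7 and 26.2 CPM to 16.8, 18.1 and 21 CPM in 67NR and rose from 5.04, 4.61 and 2.85 CPM to 32.4, 39.2 and 28.3 CPM in 168FARN. Replicate 3 of 67NR WT was much closer to the KO libraries than the other 2 for *Pdzrn3*. Median levels over the 13 genes were 38 and 14.1 CPM in WT and *Kmt2d* KO of 67NR and 1.23 and 11.6 CPM in WT and *Kmt2d* KO of 168FARN.

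To ask which pathways responded in 1 line only, 31 gene lists were counted. The listed genes with opposite calls in the 2 lines were *Snai2* and *Trim30a*, and with the block 16 genes of 12 lists had them. In 25 of the lists edgeR called no member in 168FARN, where 0.945% of all genes were called, so that a list without a call there is near the background. These 25 lists held 616 different genes, of which 37 had an unadjusted p under 0.05 in 168FARN and 41 were called with the block, and DESeq2 made 11 calls summed over the lists. The calls in 168FARN that the block added to a list are given with it where they came to 4 or more. The lists are described beside the values over all genes, whose median log2 change was -0.07 in 67NR and -0.00 in 168FARN. Over all genes, 20.5% were called in 67NR and 10.4% for the difference. The share called for the difference was near this in interferon-stimulated (9.3%), epithelial (8.82%), MHC class I (10.0%) and Hox genes (11.1%). It was also near in metalloproteinase (12.5%), Wnt (13.3%) and smooth muscle genes (13.3%), against 55.0% in mesenchymal genes. In 67NR, antioxidant (19.4%) and immediate early genes (23.8%) were near the background. Counts near it do not set a list apart from other genes. Of 73 counts of 1 to 4 calls in a list, 44 moved by over 1.5 times when 1 library was left out, so that such small counts rest on few libraries, and larger counts that moved as much are given with their list.

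**Figure D3:**
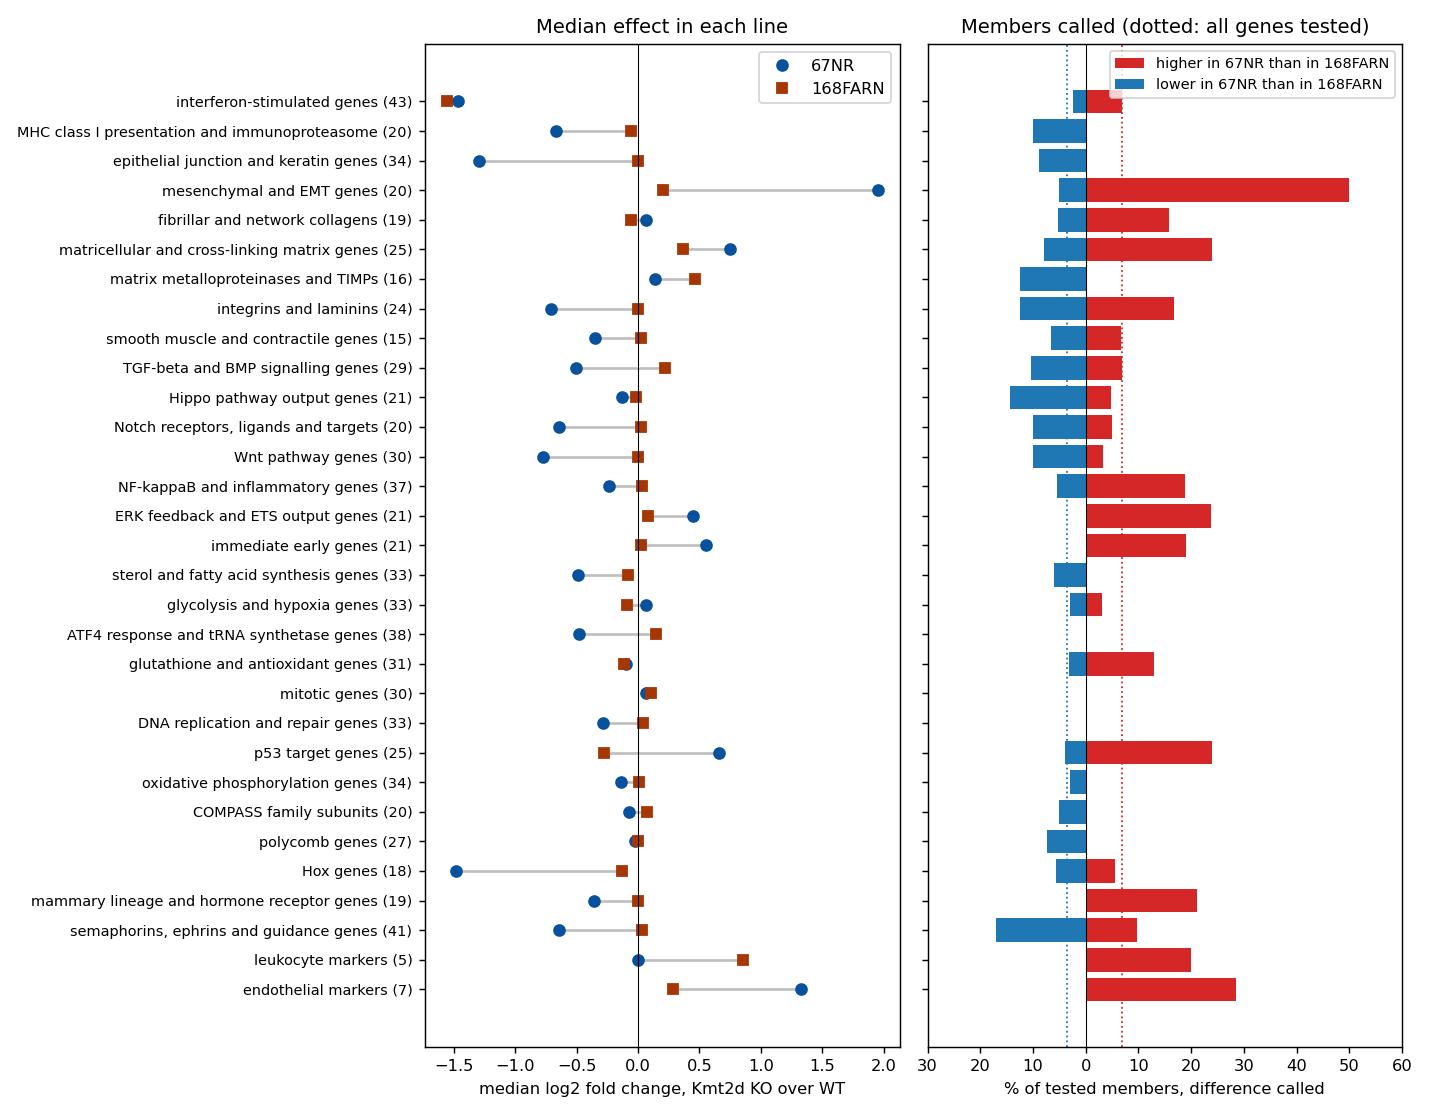
Left, median log2 change of the tested members of each list in 67NR (circles) and 168FARN (squares), with the number tested in parentheses. Right, share of members whose difference between lines was called higher (red) or lower (blue) in 67NR, with dotted lines at the shares over all genes (6.81% and 3.56%). Interferon-stimulated genes lie far to the left in both lines, and mesenchymal genes have the longest red bar, 10 of 20 members.

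Interferon-stimulated genes fell in both lines. These genes are switched on by the transcription factor complex ISGF3 and restrict virus replication. Of 43 tested, 25 were lower and 1 was higher in 67NR and 15 were lower in 168FARN, where 34 were lower with the block. The count of 15 was 8 without 168FARN WT replicate 1 or 2 or *Kmt2d* KO replicate 1 or 2, and 10 when the *Kmt2c* KO libraries were left out of the model. The medians were -1.47 in 67NR and -1.56 in 168FARN, and 38 of the 43 (88.4%) had a negative change in both lines. The summed level of the list was 1038, 1069 and 1321 CPM in 67NR WT and 566, 541.3 and 615.6 CPM in 67NR *Kmt2d* KO. In 168FARN it was 979.2, 981.8 and 503.6 CPM in WT and 441.7, 433.4 and 351.4 CPM in *Kmt2d* KO. The groups did not overlap in either line, although replicate 3 of 168FARN WT was closer to the KO libraries than the other 2.

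Of the 40 genes called the same way in both lines without a called difference, 11 were on this list: *Oas1a*, *Oas3* and *Oasl2*, which make or resemble the enzymes of the 2-5A pathway, *Isg15*, *Ifit3*, *Ifi44*, *Usp18*, *Rtp4*, *Zbp1*, *Gbp2* and *Gbp3*. With the block the fall of *Oas1a* and *Oas3* differed in size between lines. *Isg15*, a ubiquitin-like modifier, had a log2 change of -2.23 in 67NR and -1.56 in 168FARN. *Rtp4* had changes of -2.99 and -2.76, and *Gbp2*, an interferon-induced GTPase, of -1.47 and -1.53. The difference between lines was called for 4 members, 3 higher and 1 lower in 67NR, or 11 higher and 5 lower with the block. *Trim30a*, a ubiquitin ligase of a family with near-identical copies among which reads may be split, was at 19.1, 21.8 and 9.06 CPM in 67NR WT and 32.5, 26.6 and 22.8 CPM in 67NR *Kmt2d* KO, and fell from 9.05, 7.4 and 5.98 CPM to 1.7, 2.02 and 2.31 CPM in 168FARN. It was called higher in 67NR (log2 0.71 ± 0.27, adjusted p = 0.091), a call that was lost on leaving out any of 8 of the 12 libraries, without the *Kmt2c* KO libraries and without the low-count filter. With the block *Ifi27l2a* was called higher in 67NR as well. *Samd9l* fell more in 168FARN, from 9.37 to 12 CPM down to 2.06 to 3.13 CPM, than in 67NR, from 44.6 to 59.9 CPM down to 22 to 37.9 CPM (difference 1.24 ± 0.35, adjusted p = 0.046). The remaining member that fell more in 168FARN was *Ddx60* (difference 1.58, adjusted p = 0.083). *Dtx3l*, a ubiquitin ligase partner of PARP9, went from 36.8 to 45.4 CPM to 9.99 to 10.2 CPM in 67NR and from 2.63 to 3.34 CPM to 1.72 to 1.8 CPM in 168FARN (difference -1.25 ± 0.28, adjusted p = 0.011). With the block its smaller fall in 168FARN was called as well.

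Promoter sequence is shown for members of the list because many of them share an element. In RefSeq promoters of GRCm38.p6 (250 bases before to 50 after the start, 31 members matched), the element GAAANNGAAA, searched on both strands, was present in 18 (58.1%), against 3.49% of all 27025 promoters. Windows of 12 bases on either side are given for 2 genes that fell in both lines and for *Trim30a*, which was called in opposite directions, with the match in capitals.
Oas3 (fell in both lines): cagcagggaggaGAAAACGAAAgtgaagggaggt
Gbp2 (fell in both lines): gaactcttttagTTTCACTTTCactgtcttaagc
Trim30a (called higher in 67NR, lower in 168FARN): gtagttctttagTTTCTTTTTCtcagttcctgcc
Members not called in 67NR, such as *Stat2*, *Bst2* and *Igtp*, had the element too. Its share describes the list, and whether it goes with the fall was not tested. A match is a description of the letters and does not show that a factor bound there.

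Genes of MHC class I presentation and the immunoproteasome had calls in 67NR. Of 20 tested, 6 were lower and 1 was higher in 67NR (11 and 1 with the block). The count of 6 was 2 without 67NR WT replicate 1 and 3 without WT replicate 2 or any 1 of the 67NR *Kmt2d* KO libraries. The difference was called lower for 2, or lower for 8 and higher for 1 with the block. *Psmb10*, an immunoproteasome subunit, fell from 29.5, 26 and 55.2 CPM to 9.22, 8.09 and 9.24 CPM in 67NR and was at 8.77 to 10 CPM in WT and 6.88 to 8.24 CPM in *Kmt2d* KO of 168FARN (difference -1.82 ± 0.35, adjusted p = 0.0039). Its level in 67NR *Kmt2d* KO thus met that of 168FARN. *Tapbpl*, a peptide editor of class I molecules, fell from 15.3 to 26 CPM to 4.63 to 11.2 CPM in 67NR, while the 168FARN groups overlapped between 3.94 and 7.11 CPM (difference -1.71 ± 0.53, adjusted p = 0.065). *Psme1*, an activator of the immunoproteasome, fell from 153 to 223 CPM to 68.6 to 90.3 CPM in 67NR, and its difference of -1.06 ± 0.39 was called only with the block (adjusted p = 0.13, and 0.00054 with the block). Reads of the class I heavy chain genes may be shared among close paralogs.

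Epithelial junction and keratin genes fell in 67NR. They form adherens and tight junctions, desmosomes and the keratin cytoskeleton. Of 34 tested, 19 were lower and none was higher in 67NR (32 lower with the block), with a median of -1.29. At an unadjusted p or by DESeq2 no member was higher in 67NR either. The median level of the members in the libraries was 64.3 to 72.8 CPM in 67NR WT and 26.6 to 30.9 CPM in 67NR *Kmt2d* KO. Called members included *Epcam* (log2 -1.42), *Cdh1*, which encodes E-cadherin (-1.41), *Krt18* (-1.37), *Cldn4* (-1.72), *Tjp3* (-2.3) and the transcription factor *Ehf* (-3.51). In 168FARN the summed level was 149.9, 151.7 and 438.1 CPM in WT and 128.2, 148 and 426.1 CPM in *Kmt2d* KO, against 5939 to 7732 CPM in 67NR WT. With 31 of 34 members below 1 CPM there, a fall like that in 67NR was not detectable for most members at this depth, and the 168FARN median of 0.00 describes genes with few or no reads.

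The difference was called for 3 epithelial members (8.82%, near the 10.4% over all genes). With the block it was called higher for 1 and lower for 8. It was called for 1 without 168FARN WT replicate 1, 168FARN *Kmt2d* KO replicate 2, 67NR WT replicate 1 or 67NR *Kmt2d* KO replicate 1. *Grhl2*, a transcription factor of epithelial identity, fell from 64.6, 64.1 and 70.6 CPM to 32.2, 34.1 and 28.3 CPM in 67NR and was at 0.994, 1.05 and 2.13 CPM and then 2.43, 2.02 and 1.76 CPM in 168FARN (difference -1.64 ± 0.35, adjusted p = 0.0077). *Pkp3*, a desmosomal plaque protein, was expressed in both lines, at 34.2 to 44.9 CPM in 67NR WT, 27.4 to 33.5 CPM in 67NR *Kmt2d* KO, 13.5 to 15.7 CPM in 168FARN WT and 20.1 to 24.9 CPM in 168FARN *Kmt2d* KO. Its small opposite shifts were not called in either line, but the difference was (-1.0 ± 0.3, adjusted p = 0.06), and with the block the rise in 168FARN was called. *Rab25*, an epithelial vesicle GTPase, fell from 34.4 to 40.1 CPM to 8.33 to 11.3 CPM in 67NR, and was below 1 CPM in all libraries of 168FARN. *Krt7* was the only member called in 168FARN, at a mean of 0.579 CPM in WT and 0 in *Kmt2d* KO, beside 1130 and 283 CPM in 67NR, and the call was lost without any 1 of the 168FARN libraries, without 67NR WT replicate 1 or 3 and without the *Kmt2c* KO libraries.

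Of 20 mesenchymal genes tested, 13 were higher and 3 lower in 67NR, 1 was lower in 168FARN (*Snai2*, a call lost without 168FARN *Kmt2d* KO replicate 2), and the difference was called higher for 10 and lower for 1, which was *Foxc1*. With the block 4 were higher in 168FARN, namely *Fn1*, *Twist1*, *Twist2* and *Fgfr1*. The medians were 1.96 in 67NR and 0.21 in 168FARN. Median levels were 12.3 CPM in 67NR WT, 65.9 CPM in 67NR *Kmt2d* KO, 84.3 CPM in 168FARN WT and 76.2 CPM in 168FARN *Kmt2d* KO. The summed level of the list, in which abundant genes weigh most, was 7358, 7222 and 4884 CPM in 67NR WT and 7342, 7147 and 11160 CPM in 67NR *Kmt2d* KO, which overlapped. In 168FARN it was 13840, 13670 and 14560 CPM in WT and 19680, 18360 and 18920 CPM in *Kmt2d* KO, higher without overlap. *Fn1*, which encodes fibronectin, went from 5912, 5731 and 1875 CPM to 1641, 1676 and 1094 CPM in 67NR and from 3439, 3933 and 787 CPM to 5450, 5665 and 1449 CPM in 168FARN, and with the block it was called in both directions. *Zeb1*, a repressor of E-cadherin, rose from 5.51, 6.45 and 3.73 CPM to 55.3, 54 and 48.2 CPM in 67NR and was at 84.6, 85 and 56.4 CPM and then 59.8, 64.3 and 44.3 CPM in 168FARN, where the groups overlapped (difference 3.75 ± 0.33, adjusted p = 2.7e-06). *Prrx1*, a homeobox factor of limb and craniofacial mesenchyme, rose from 26.1, 27.3 and 7.72 CPM to 470, 460 and 288 CPM in 67NR, beside 241 to 259 CPM and 269 to 282 CPM in 168FARN (difference 4.16 ± 0.5, adjusted p = 5.3e-05). Other members higher in 67NR only were *Cdh2*, which encodes N-cadherin (difference 3.93, adjusted p = 0.0003), *Twist2* (2.81, adjusted p = 0.00022), *Pdgfra* (2.78, adjusted p = 0.0028) and *Zeb2* (1.84, adjusted p = 0.0065). With the block the rise of *Twist2* in 168FARN was called too. *Vim* rose in 67NR (log2 2.14), and its difference was called only with the block (adjusted p = 0.16 without it).

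**Figure D4:**
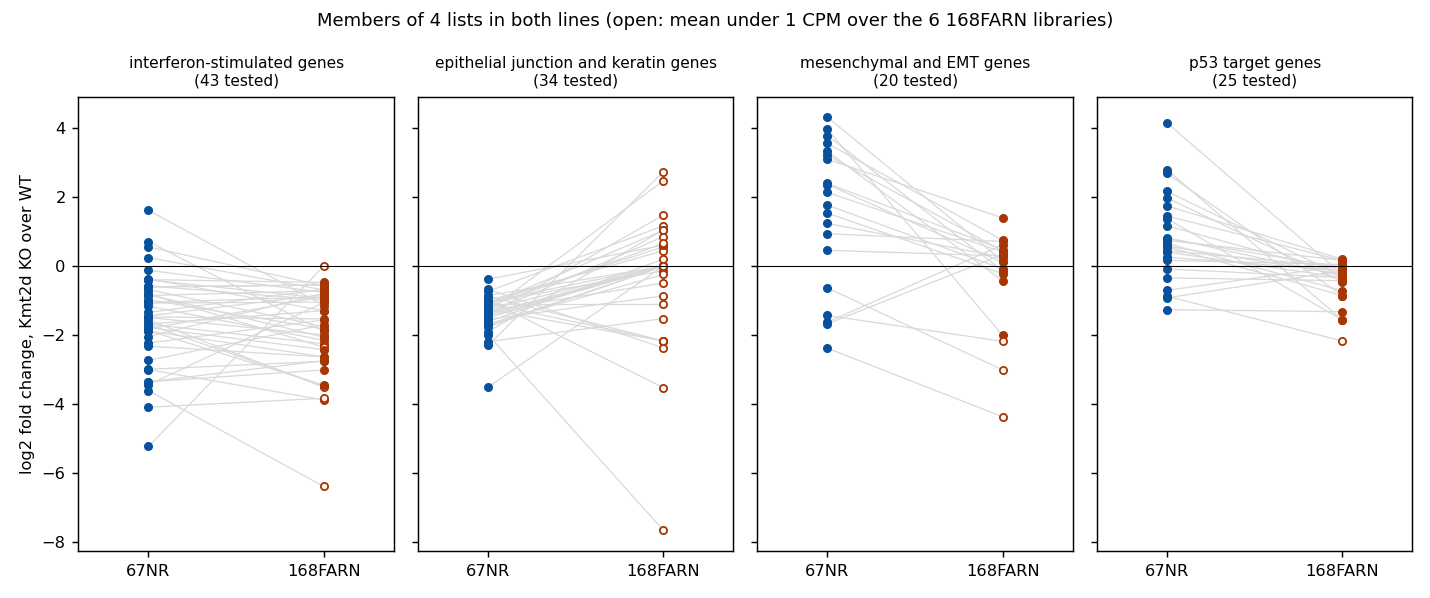
Log2 change from WT to *Kmt2d* KO of each tested member of 4 lists in 67NR (left) and 168FARN (right), with a line joining the same gene. Open circles are genes below 1 CPM on average in the 6 libraries of 168FARN, which include 31 of the 34 epithelial genes; 38 of the 43 interferon-stimulated genes lie below 0 in both lines, and the medians of mesenchymal and p53 target genes lie above 0 in 67NR (1.96 and 0.66).

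The sequence CAGGTG, the E-box that SNAI and ZEB proteins are known to recognise, was present in 14 of 19 matched epithelial promoters (73.7%), against 20% of all promoters and 3 of 12 mesenchymal promoters (25%). Windows are shown for 3 epithelial genes that fell in 67NR, with the first match to the element or its reverse complement in capitals. The *Rab25* window also holds another match, left in lower case.
Epcam: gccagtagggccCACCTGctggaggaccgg
Rab25: catcgctccaccCACCTGtgccccaggtgc
Tjp3: gtcacaaggggtCAGGTGtacagacaggga
The element was also present in promoters of members not called in 67NR, namely *Krt8*, *Ocln*, *Dsp*, *Lsr* and *Elf3*. Its share describes the list, and whether it goes with the fall in 67NR was not tested. Binding is not measured by RNA-seq.

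Of 19 collagen genes tested, 5 were higher (3 without 67NR WT replicate 2 or *Kmt2d* KO replicate 3) and 2 lower in 67NR, and the difference was called higher for 3 and lower for 1 (6 and 2 with the block). *Col5a3*, a fibrillar collagen chain, rose from 1.73 to 2.51 CPM to 18.1 to 21.7 CPM in 67NR, beside 10.1 to 36.5 CPM and 7.98 to 24.6 CPM in 168FARN (difference 3.69 ± 0.76, adjusted p = 0.0062). *Col7a1*, the anchoring fibril collagen of epithelial basement membranes, fell from 141, 108 and 193 CPM to 30.1, 41.4 and 57.2 CPM in 67NR and was at 8.33 to 10.5 CPM and 11.9 to 13.9 CPM in 168FARN (difference -2.25 ± 0.38, adjusted p = 0.0013). *Col5a2*, *Col5a3* and *Col6a3*, which belong to stromal matrix, were among the 5 chains that rose. *Col7a1* was 1 of the 2 that fell, and the other called chains are not named here. Of 25 matricellular and cross-linking genes, 11 were higher and 2 lower in 67NR (13 and 5 with the block, with 4 higher in 168FARN), and the difference was called higher for 6 and lower for 2 (7 and 7 with the block). The summed level of these genes was 5116, 5679 and 4361 CPM in 67NR WT and 4578, 4283 and 4657 CPM in 67NR *Kmt2d* KO, and 7215, 6909 and 3294 CPM in 168FARN WT and 12250, 10410 and 4308 CPM in 168FARN *Kmt2d* KO. The groups overlapped in both lines. *Loxl1*, a lysyl oxidase, rose from 2.1 to 2.71 CPM to 15.1 to 23.8 CPM in 67NR (difference 3.4 ± 0.47, adjusted p = 0.00023). *Vcan*, the proteoglycan versican, rose from 1.57 to 3.42 CPM to 37.9 to 41.3 CPM in 67NR, and in 168FARN its change of 0.86 ± 0.32 was called only with the block (adjusted p = 0.54, and 0.013 with the block). *Fbln1* also rose in 67NR only (difference 1.83 ± 0.37, adjusted p = 0.0056).

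Of 16 matrix metalloproteinase and TIMP genes, 3 were higher and 3 lower in 67NR (7 and 5 with the block) and 1 was higher in 168FARN, and the difference was called lower for 2 (5 higher and 4 lower with the block). *Mmp3*, stromelysin-1, was the member called in both lines. It was at 25, 25.9 and 14.2 CPM in 67NR WT, 65.7, 57.3 and 57.6 CPM in 67NR *Kmt2d* KO, 6.89, 7.25 and 5.03 CPM in 168FARN WT and 21.6, 36 and 27 CPM in 168FARN *Kmt2d* KO. The rises of 1.47 ± 0.32 and 2.14 ± 0.33 did not differ beyond their error (difference -0.67 ± 0.44, adjusted p = 0.48, and 0.14 with the block). *Mmp13*, a collagenase, was at 283, 316 and 37.7 CPM in 67NR WT and 20.8, 15.9 and 21.8 CPM in 67NR *Kmt2d* KO, and replicate 3 of WT again lay nearest the KO libraries. In 168FARN it was at 2.09, 2.51 and 0.5 CPM and then 4.82, 7.26 and 1.37 CPM (difference -4.83 ± 1.0, adjusted p = 0.0065). *Mmp15*, a membrane-bound metalloproteinase, fell from 36.4, 30.2 and 19.4 CPM to 0.764, 0.343 and 0.356 CPM in 67NR and was below 1 CPM throughout 168FARN. *Mmp2* was called higher in 67NR (log2 2.09 ± 0.82, adjusted p = 0.098), but its difference was called only with the block (adjusted p = 0.3, and 0.023 with the block).

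Of 24 integrin and laminin genes, 4 were higher and 9 lower in 67NR, and the difference was called higher for 4 and lower for 3 (6 and 8 with the block). *Itgb7* rose from 2.41 to 3.37 CPM to 14.7 to 25.5 CPM in 67NR, beside 61.4 to 76.2 CPM and 85.2 to 114 CPM in 168FARN. *Itgb2*, the beta chain of leukocyte integrins, fell from 63.8 to 110 CPM to 9.02 to 28.8 CPM in 67NR, beside 5.25 to 6.07 CPM and 6.59 to 7.82 CPM in 168FARN. Again each moved towards the 168FARN level. *Itga7*, a laminin receptor, had a difference of 2.34 ± 0.46 (adjusted p = 0.0042), and its fall in 168FARN (log2 -0.64 ± 0.32) was called with the block. Of 15 smooth muscle and contractile genes, 2 were higher and 2 lower in 67NR (4 and 4 with the block) and 1 was lower in 168FARN, and the difference was called for 2 (4 higher and 3 lower with the block). *Des*, the muscle filament desmin, was higher in 67NR only (difference 4.14 ± 0.98, adjusted p = 0.016) and was called lower in 168FARN with the block, and *Sorbs2*, an adaptor of focal adhesions, fell in both lines and more in 67NR (log2 -2.82 ± 0.2 and -0.84 ± 0.2). The call of *Sorbs2* in 168FARN held on leaving out 67NR WT replicate 3 or *Kmt2d* KO replicate 3 and was lost without any other library, without the *Kmt2c* KO libraries and without the low-count filter. *Smtn*, smoothelin, had a difference called only with the block (adjusted p = 0.12, and 0.0015 with the block).

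TGF-beta and BMP genes had 3 higher and 9 lower of 29 in 67NR (5 and 9 with the block), with the difference called higher for 2 and lower for 3 (4 and 9 with the block). *Tgfbr3*, the co-receptor betaglycan, rose from 20, 17.7 and 6.09 CPM to 118, 117 and 92.7 CPM in 67NR, beside 86.1 to 114 CPM and 112 to 146 CPM in 168FARN. *Bmp1*, a protease that processes procollagens, fell from 95.6 to 110 CPM to 37.8 to 60.5 CPM in 67NR, beside 26 to 31.4 CPM and 31.4 to 33.2 CPM in 168FARN (difference -1.31 ± 0.29, adjusted p = 0.0092). The ligand *Tgfb2* (difference -3.92, adjusted p = 0.043) and the transducer *Smad3* (-1.34, adjusted p = 0.065) also fell in 67NR only, and the BMP modulator *Bmper* rose (3.24 ± 0.68, adjusted p = 0.0065).

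Of 21 Hippo output genes, 2 were higher and 6 lower in 67NR (4 and 8 with the block), and the difference was called higher for 1 and lower for 3 (5 and 6 with the block). The 6 lower genes were 3 without 67NR WT replicate 1 or 2 or *Kmt2d* KO replicate 1 or 2. *Foxf2*, a forkhead factor of mesenchyme related to *Foxf1*, rose from 0.254 to 0.771 CPM to 8.44 to 11.5 CPM in 67NR, opposite to *Foxf1* in the same cells, and lay between 12.9 and 15.6 CPM in all libraries of 168FARN. *Nuak2*, a kinase of the AMPK family, fell from 56, 52.6 and 34.3 CPM to 8.06 to 8.83 CPM in 67NR and was at 1.42 to 2.17 CPM in 168FARN. *Asap1*, a GTPase-activating protein, fell in 67NR (log2 -0.65 ± 0.23), and its 168FARN change of 0.76 ± 0.23 was called only with the block (adjusted p = 0.27, and 0.00043 with the block). Of 20 Notch genes, 2 were higher and 7 lower in 67NR (4 and 8 with the block), and the difference was called higher for 1 and lower for 2 (2 and 6 with the block). The 7 lower genes were 2 without 67NR *Kmt2d* KO replicate 1 and 4 without WT replicate 2 or *Kmt2d* KO replicate 2 or 3. The differences were those of the receptor *Notch4* (1.68 ± 0.52, adjusted p = 0.065), the ligand *Jag2* (-2.56 ± 0.68, adjusted p = 0.032) and the receptor-modifying *Lfng* (-2.24 ± 0.7, adjusted p = 0.069). *Jag2* was below 1 CPM in all libraries of 168FARN.

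Of 30 Wnt pathway genes, 2 were higher and 11 lower in 67NR, with the difference called higher for 1 and lower for 3 (2 and 8 with the block). The 11 lower genes were 6 or 7 without 67NR WT replicate 1 or 2 or *Kmt2d* KO replicate 1 or 2. The 3 with a lower response were ligands. *Wnt10a* fell from 33.4, 26.7 and 21.7 CPM to 6.68, 8.22 and 4.02 CPM in 67NR and was at 2.41 to 2.9 CPM and 2.52 to 2.99 CPM in 168FARN (difference -2.12 ± 0.4, adjusted p = 0.0028). *Wnt9a* fell from 26.1, 20.5 and 25 CPM to 1.13, 1.03 and 1.02 CPM in 67NR and was at 1.75 to 6.61 CPM and 1.76 to 5.39 CPM in 168FARN (difference -4.17 ± 0.86, adjusted p = 0.006). *Wnt7b* had a difference of -1.32 (adjusted p = 0.06). The antagonist *Dkk2* went the other way (3.48 ± 1.0, adjusted p = 0.053), but did not exceed 0.153 CPM in any library of 67NR. *Axin2*, a feedback target of the pathway, was higher in 67NR (log2 1.98) without a called difference (adjusted p = 0.51).

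Inflammatory mediators split in 67NR. Of 37 NF-kappaB and inflammatory genes, 10 were higher and 8 lower there (14 and 16 with the block), and the difference was called higher for 7 and lower for 2 (12 and 8 with the block). *Ccl2*, a monocyte chemokine, rose from 3.76, 4.04 and 1.41 CPM to 175, 166 and 153 CPM in 67NR and stayed at 3.62 to 3.8 CPM and 3.67 to 5.9 CPM in 168FARN (difference 5.41 ± 0.51, adjusted p = 4.9e-06). Here the WT lines were alike, and 67NR *Kmt2d* KO left the 168FARN level behind. *Cxcl1*, a neutrophil chemokine, rose from 367, 443 and 507 CPM to 4424, 3542 and 2404 CPM in 67NR, and was at 70.3, 54.9 and 52 CPM and then 51.8, 43 and 18.3 CPM in 168FARN (difference 3.63 ± 0.6, adjusted p = 0.001). *Il11*, a cytokine of the IL-6 family, rose from 3.73, 3.79 and 2.42 CPM to 27.8, 28.6 and 14.7 CPM in 67NR, beside 8.78 to 16.1 CPM and 12.7 to 19.8 CPM in 168FARN. The other members higher in 67NR only were *Ccl7* (difference 5.03), *Il6* (5.11), *Il33* (3.58) and *Cxcl12* (2.53), whereas *Cxcl2* (-3.08) and *Csf3* (-5.61) were lower in 67NR only.

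Of 21 feedback and ETS genes of ERK output, 8 were higher (4 without 67NR WT replicate 2) and 1 lower in 67NR, and the difference was called higher for 5 (9 higher and 2 lower with the block). *Dusp6*, a phosphatase that inactivates ERK, was at 114, 121 and 110 CPM in 67NR WT and 303, 277 and 291 CPM in 67NR *Kmt2d* KO, beside 218, 193 and 160 CPM and 231, 183 and 159 CPM in 168FARN. The 168FARN groups were nearly identical for *Dusp6* (log2 0.0 ± 0.17), and the difference was 1.33 ± 0.25 (adjusted p = 0.0028). *Fosl1*, which encodes the AP-1 subunit FRA-1, rose from 42.6, 36.6 and 88.3 CPM to 266, 298 and 276 CPM in 67NR, beside 356 to 401 CPM and 418 to 545 CPM in 168FARN (difference 1.93 ± 0.37, adjusted p = 0.0036). *Spred3*, an inhibitor of RAS signalling, rose in 67NR only (1.45 ± 0.25, adjusted p = 0.0014). Of 21 immediate early genes, 5 were higher in 67NR (8 without 67NR *Kmt2d* KO replicate 3, and 10 higher and 2 lower with the block), and the difference was called higher for 4 (11 higher and 1 lower with the block). *Jun* rose from 114, 105 and 130 CPM to 526, 549 and 414 CPM in 67NR and overlapped between 322 and 537 CPM in 168FARN. *Egr1* rose from 40.6, 43.4 and 48.3 CPM to 148, 151 and 160 CPM in 67NR, and was at 38.5 to 58.5 CPM and 23.2 to 32.6 CPM in 168FARN, where the fall was called only with the block (log2 -0.69 ± 0.22, adjusted p = 0.31, and 0.043 with the block).

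More genes activated by p53 rose than fell in 67NR, and none was called in 168FARN, where 5 were lower with the block. These genes arrest the cell cycle or respond to DNA damage. Of 25 tested, 9 were higher and 3 lower in 67NR, and the difference was called higher for 6 and lower for 1 (16 and 2 with the block). The medians were 0.66 in 67NR and -0.28 in 168FARN. The summed level was 1897, 1977 and 1772 CPM in 67NR WT and 3054, 2900 and 1814 CPM in 67NR *Kmt2d* KO. These groups overlapped, with replicate 3 of *Kmt2d* KO at the WT level. The median level of the members was 33.4 to 39.8 CPM in 67NR WT and 47 to 69.5 CPM in 67NR *Kmt2d* KO, without overlap. *Ccng1*, cyclin G1, was at 91.5, 102 and 88.5 CPM in 67NR WT and 462, 383 and 267 CPM in 67NR *Kmt2d* KO, against 574, 545 and 455 CPM and 363, 329 and 458 CPM in 168FARN (difference 2.43 ± 0.32, adjusted p = 0.00012). *Eda2r*, a receptor of the TNF family, rose from 4.35, 6.21 and 1.8 CPM to 93.3, 82 and 46.7 CPM in 67NR and overlapped between 64.7 and 166 CPM in 168FARN. *Cdkn1a*, the cell cycle inhibitor p21, rose in 67NR (log2 2.17) with a difference of 2.46 (adjusted p = 0.03). *Btg2*, also an immediate early gene, rose from 8.71 to 10.4 CPM to 17.3 to 30.6 CPM in 67NR and went from 26, 27.6 and 10.2 CPM to 7.93, 9.88 and 3.91 CPM in 168FARN (difference 2.94 ± 0.64, adjusted p = 0.0092). *Ddit4l* had a difference of 4.35 ± 0.72 (adjusted p = 0.0011). With the block the falls of *Btg2* and *Ddit4l* in 168FARN were called (adjusted p = 6.8e-05 and 0.002), which makes both responses opposite.

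Proliferation genes gave no edgeR or DESeq2 call in either line or in the difference, and their libraries differed mainly by replicate. Of 30 mitotic genes, none had an unadjusted p under 0.05 in any of the 3 comparisons. *Mki67*, the marker Ki-67, was at 45.1, 49.4 and 546 CPM in 67NR WT and 226, 223 and 583 CPM in 67NR *Kmt2d* KO, and at 275, 309 and 1179 CPM and 295, 290 and 1284 CPM in 168FARN. Replicates 1 and 2 of 67NR rose and replicate 3 hardly did. Without replicate 3 of every group, 25 mitotic genes were higher in 67NR, 1 was higher in 168FARN, and the difference was called higher for 18; with the block, or without 67NR WT replicate 3 alone, 5 were higher in 67NR, and with the block the difference was called for 1. Of 33 DNA replication and repair genes, none was called and none had an unadjusted p under 0.05, but with the block 3 were higher and 12 lower in 67NR, and the difference was called higher for 3 and lower for 11. *Ccne1*, cyclin E1, was at 1.74 to 4.06 CPM and 4.45 to 8.61 CPM in 67NR, and its difference of 1.51 ± 1.2 was called only with the block (adjusted p = 0.58, and 3.3e-05 with the block).

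Metabolic lists held few calls. Of 33 sterol and fatty acid genes, 1 was higher and 2 were lower in 67NR (1 and 13 with the block), and the difference was called lower for 2 (8 lower and 1 higher with the block). *Acaca*, the acetyl-CoA carboxylase of fatty acid synthesis, fell from 64.8 to 70.9 CPM to 41.6 to 44.9 CPM in 67NR and overlapped between 40.2 and 52.5 CPM in 168FARN (difference -0.63 ± 0.21, adjusted p just under the threshold). Of 33 glycolysis and hypoxia genes, 2 were higher and 3 lower in 67NR (7 and 7 with the block), and the difference was called for 2 (6 higher and 5 lower with the block). *Adm*, the hypoxia-induced peptide adrenomedullin, rose from 3.06 to 3.69 CPM to 20.8 to 36.9 CPM in 67NR and went from 28.1 to 35.7 CPM to 15.6 to 23.6 CPM in 168FARN, where the fall was called only with the block (adjusted p = 0.85, and 0.047 with the block). *Pfkfb4*, a regulator of glycolysis, fell in 67NR only (difference -1.66 ± 0.39, adjusted p = 0.015).

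Of 38 ATF4 response and tRNA synthetase genes, 5 were lower in 67NR (15 with the block), a count of 0 without 67NR WT replicate 1 or 2 or *Kmt2d* KO replicate 3, 2 without *Kmt2d* KO replicate 1 or 2, 9 without WT replicate 3 and 1 without the *Kmt2c* KO libraries. No difference was called by edgeR; 4 had an unadjusted p under 0.05, DESeq2 called 2, and 15 were called lower and 1 higher with the block. *Vldlr*, a lipoprotein receptor, had a difference of -2.6 ± 1.0 (adjusted p = 0.16, and 1.1e-08 with the block). Of 31 glutathione and antioxidant genes, 4 were higher and 2 lower in 67NR (5 and 4 with the block), and the difference was called higher for 4 and lower for 1 (8 and 5 with the block). *Srxn1*, sulfiredoxin, rose from 37.9 to 43.6 CPM to 66.7 to 83.5 CPM in 67NR and overlapped between 197 and 259 CPM in 168FARN. *Prdx6*, a peroxiredoxin, fell from 386 to 406 CPM to 178 to 201 CPM in 67NR and overlapped between 175 and 246 CPM in 168FARN (difference -0.92 ± 0.21, adjusted p = 0.011). *Abcc1*, an exporter of glutathione conjugates, moved by less than the fold threshold in each line, up in 67NR and down in 168FARN, and its difference was called (0.99 ± 0.18, adjusted p = 0.0028). Of 34 oxidative phosphorylation genes, 2 were lower in 67NR (2 higher and 4 lower with the block), and the difference was called lower for 1 (1 higher and 2 lower with the block). *Ndufs3*, a subunit of complex I, fell in 67NR (log2 -0.60 ± 0.18, adjusted p = 0.036) without a called difference (adjusted p = 0.3).

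Of 20 COMPASS family genes, which include the partners of KMT2D, 1 was higher in 67NR (3 with the block), which was *Kdm6a* (log2 0.65 ± 0.21, adjusted p = 0.049). *Kdm6a* was at 45, 49.3 and 37.2 CPM in 67NR WT and 73.1, 72.6 and 60.8 CPM in 67NR *Kmt2d* KO, and its 168FARN groups overlapped between 45.7 and 78.7 CPM. The difference was called only with the block (adjusted p = 0.22, and 0.0062 with the block). *Rbbp5*, a core subunit of all COMPASS complexes, was called for the difference only (-0.76 ± 0.22, adjusted p = 0.052). *Kmt2c*, the closest relative of *Kmt2d*, was at 55.9 to 65.5 CPM and 94.9 to 113 CPM in 67NR and overlapped in 168FARN (difference 0.74 ± 0.52, adjusted p = 0.52, and 0.0035 with the block). Of 27 polycomb genes, 1 was higher and 2 lower in 67NR (2 and 3 with the block), and the difference was called lower for 2, *Cbx6* and *Pcgf6* (4 higher and 5 lower with the block).

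Of 18 Hox genes tested, 1 was higher and 5 were lower in 67NR (2 and 9 with the block), and the difference was called for 2 (2 higher and 3 lower with the block). *Hoxb4* rose from 0.422 to 0.922 CPM to 7.45 to 9.85 CPM in 67NR and overlapped between 4.34 and 15.1 CPM in 168FARN. *Hoxa5* fell from 261, 278 and 623 CPM to 57.8, 66.4 and 159 CPM in 67NR, beside 14.9 to 20.8 CPM and 14.1 to 24.6 CPM in 168FARN (difference -2.15 ± 0.59, adjusted p = 0.038). The 5 lower genes were all of the *Hoxa* cluster, namely *Hoxa2*, *Hoxa3*, *Hoxa4*, *Hoxa5* and *Hoxa10*, and their number was 1 without 67NR WT replicate 3 or *Kmt2d* KO replicate 1 and 2 without *Kmt2d* KO replicate 2. Of 19 mammary lineage and hormone receptor genes, 6 were higher in 67NR (6 higher and 7 lower with the block), and the difference was called higher for 4 (4 higher and 2 lower with the block). *Tbx3*, a T-box factor of mammary development, rose from 2.35, 2.39 and 1.78 CPM to 73.3, 79.2 and 58 CPM in 67NR, beside 21.6 to 23.2 CPM and 34.4 to 40.9 CPM in 168FARN, and so passed the 168FARN level (difference 4.27 ± 0.29, adjusted p = 3.6e-07). Its smaller rise in 168FARN was called with the block. *Ereg*, an EGF receptor ligand, rose from 6.47, 8.68 and 3.69 CPM to 166, 163 and 111 CPM in 67NR, beside 138 to 246 CPM and 118 to 301 CPM in 168FARN. *Nr3c1*, the glucocorticoid receptor, rose from 84 to 102 CPM to 216 to 258 CPM in 67NR (difference 1.54 ± 0.25, adjusted p = 0.001).

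Axon guidance genes moved in both directions in 67NR and contained the 1 listed gene that responded in 168FARN only. Of 41 tested, 6 were higher and 13 lower in 67NR (9 and 20 with the block), 1 was higher in 168FARN (6 higher and 3 lower with the block), and the difference was called higher for 4 and lower for 7 (10 and 17 with the block). The 7 were 4 without WT replicate 1 of either line, 168FARN *Kmt2d* KO replicate 3 or 67NR *Kmt2d* KO replicate 1. That gene was *Sema3d*, a secreted semaphorin, which rose from 0.213, 0.127 and 0.25 CPM to 2.94, 2.62 and 0.782 CPM in 168FARN and overlapped between 2.67 and 6.51 CPM in 67NR (difference -4.1 ± 0.75, adjusted p = 0.0024). *Plxna2*, a semaphorin receptor, rose from 0.576 to 1.34 CPM to 10.9 to 12.6 CPM in 67NR, and its 168FARN change of 0.73 ± 0.27 was not called (adjusted p = 0.55, called with the block). *Ephb6*, a kinase-dead Eph receptor, fell from 27.4, 23 and 9.8 CPM to 2.39, 3.62 and 2.88 CPM in 67NR (difference -4.49 ± 0.88, adjusted p = 0.0043). In 168FARN it was at 0.35 to 0.794 CPM and 0.704 to 3.22 CPM, a rise called only with the block (adjusted p = 0.51, and 0.015 with the block).

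Markers of other cell types were at low levels in both lines. Of 16 leukocyte markers, 5 had enough counts to be tested. *Cd8a*, *Ms4a1*, *Nkg7* and *Tyrobp* had no counts in any of the 12 libraries, and the pan-leukocyte marker *Ptprc* had 9 counts in all. The summed level of the list was 7.277 to 15.79 CPM in 67NR WT, 12.95 to 19.55 CPM in 67NR *Kmt2d* KO, 11.44 to 17.78 CPM in 168FARN WT and 9.06 to 16.85 CPM in 168FARN *Kmt2d* KO. *Lyz2*, a macrophage lysozyme, was at 0.0922 to 0.554 CPM and 2.23 to 3.31 CPM in 67NR (difference 3.35 ± 0.79, adjusted p = 0.015), and *Csf1r*, the macrophage growth factor receptor, was at 0.169, 0.357 and 3.69 CPM in 67NR WT and at most 0.102 CPM in 67NR *Kmt2d* KO. Of 14 endothelial markers, 7 were tested, *Cldn5*, *Erg*, *Sox17* and *Emcn* had no counts, 3 were higher in 67NR and the difference was called higher for 2, *Clec14a* (2.63 ± 0.52, adjusted p = 0.0046) and *Cdh5* (2.67 ± 0.66, adjusted p = 0.021). *Clec14a* was at 0.553 to 2.07 CPM and 9.5 to 12.4 CPM in 67NR, whereas *Cdh5* did not exceed 1.2 CPM in any library. The summed level of the endothelial list was 19.88 to 23.4 CPM in 67NR WT and 22.32 to 24.85 CPM in 67NR *Kmt2d* KO, beside 4.826 to 7.373 CPM and 5.162 to 14.81 CPM in 168FARN. The part of other cells in the results above was not tested.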

How the data were processed

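RNA of 168FARN and 67NR cells (WT, *Kmt2c* KO and *Kmt2d* KO, 3 libraries each, 18 in all) was sequenced by the authors with a strand-specific mRNA kit as paired reads, aligned with STAR to mm 9 in the VIPER pipeline, and deposited as raw counts of reads per gene symbol in 1 table per line. Whether counting used strand, the annotation release and tool versions are not given in the sources used here, so antisense, overlapping and near-identical genes are uncertain.

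Both tables were joined on the gene symbol (24333 genes; 27 of 24360 in each table were left out because their symbols had turned into dates), and *Rn45s*, 28.74% of 1 library, was dropped. Groups came from the sample titles. edgeR 4.0.16 in R 4.3.3 (TMM, filter by group, robust quasi-likelihood fit over 18 libraries and 13859 genes) tested the change in each line and the difference between lines. A call needed a Benjamini-Hochberg adjusted p under 0.1, from edgeR wherever no tool is named, and an absolute log2 change over 0.6. SE is the log2 change divided by the square root of F. CPM is counts per 1000000 of TMM-scaled library size. A gene responded in 1 line only when that line and the difference were called and the other line was not. With 3 libraries a group, precision is limited by the spread between libraries, and a count of 0 was set to a floor of 3 counts over the group.

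Named genes were, in each class, the 3 with the smallest p for the difference among those whose groups did not overlap, in each list the 3 tested members with the smallest p, and *Kmt2c*, *Kmt2d*, *Kdm6a* and *Mmp3*; list members given with a change only were picked after their values were seen. Values of some genes are not reported here. The members and lists were chosen with earlier results of these data known. Replicate numbers from the titles were checked as pairs. Deviations from the group means correlated between the *Kmt2d* KO and WT libraries of the same number at 0.582, 0.515 and 0.821 in 168FARN. In 67NR these values were 0.400, 0.354 and 0.602. Replicates 1 and 2 paired across numbers gave 0.490 and 0.524 in 168FARN and 0.413 and 0.466 in 67NR. The correlations therefore set replicate 3 apart but do not show that replicates 1 and 2 pair by number. The fit with the number within a line as a block is given where it changes a call. Alternatives were DESeq2 1.42.0, its size factors, no low-count filter, the 12 libraries alone, an adjusted p under 0.05 without the fold threshold, *Rn45s* kept, and leaving out each library or replicate 3 of every group. DESeq2 with the block was added after the data were seen. Promoter windows came from RefSeq (GRCm38.p6) and guide positions from the mm 9 genome. The fit without the block was also run on simulated counts, drawn independently for each library with changes in 67NR *Kmt2d* KO only. The simulation held no shift shared by replicate 3, so it does not test the fit under that shift.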

Additional observations from a re-analysis of the deposited data

Results flagged for a closer look

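For 88 named genes the test of the difference between the lines itself passed, and the values of 86 are given. Each is the log2 change in 67NR minus that in 168FARN. Because many of these genes were chosen for their small p in that test, the values are a description. Among genes that responded in 67NR only, it was 4.52 for *Epb41l3*, 4.44 for *B3galt1*, 4.24 for *Arhgef10*, -2.8 for *Tacc1*, -6.24 for *Foxf1* and -3.35 for *Ly6e*. Among genes that responded in 168FARN only, it was -1.87 for *Mid1*, -4.92 for *Mapt*, -3.7 for *Vtcn1*, 1.99 for *AI429214* and 1.93 for *Glipr2*. The fitted 9.15 for *Stxbp6* depends on the handling of its 0 counts. The opposite responses gave 4.78 for *Tph2*, 7.43 for *Nnmt*, 6.35 for *Csn3*, -4.57 for *B3glct*, -5.44 for *Cerk* and -4.82 for *Pdzrn3*.

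Interferon and antigen presentation genes had 2.61 (*Trim30a*), -1.25 (*Dtx3l*), 1.24 (*Samd9l*), -1.82 (*Psmb10*) and -1.71 (*Tapbpl*). Epithelial and mesenchymal genes had -1.64 (*Grhl2*), -2.95 (*Rab25*), -1.0 (*Pkp3*), 3.75 (*Zeb1*), 5.97 (*Snai2*) and 4.16 (*Prrx1*). Matrix, adhesion and contractile genes had -2.25 (*Col7a1*), 3.69 (*Col5a3*), 3.08 (*Col5a2*), 3.4 (*Loxl1*), 3.06 (*Vcan*), 1.83 (*Fbln1*), -4.83 (*Mmp13*), -5.57 (*Mmp15*), 2.41 (*Itgb7*), 2.34 (*Itga7*), -2.65 (*Itgb2*), -1.98 (*Sorbs2*) and 4.14 (*Des*).

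Genes of the TGF-beta, Hippo, Notch and Wnt lists had 2.55 (*Tgfbr3*), 3.24 (*Bmper*), -1.31 (*Bmp1*), 4.25 (*Foxf2*), -2.51 (*Nuak2*), -1.41 (*Asap1*), -2.56 (*Jag2*), 1.68 (*Notch4*), -2.24 (*Lfng*), -2.12 (*Wnt10a*), -4.17 (*Wnt9a*) and 3.48 (*Dkk2*). Inflammatory, ERK and immediate early genes had 5.41 (*Ccl2*), 3.63 (*Cxcl1*), 2.55 (*Il11*), 1.45 (*Spred3*), 1.33 (*Dusp6*), 1.93 (*Fosl1*), 2.48 (*Egr1*), 2.1 (*Jun*) and 2.94 (*Btg2*). Metabolic genes had -0.63 (*Acaca*), 3.7 (*Adm*), -1.66 (*Pfkfb4*), 0.99 (*Abcc1*), 1.02 (*Srxn1*) and -0.92 (*Prdx6*).

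Genes activated by p53 had 2.43 (*Ccng1*), 4.4 (*Eda2r*) and 4.35 (*Ddit4l*). Chromatin, Hox and mammary genes had -0.76 (*Rbbp5*), -1.06 (*Cbx6*), -1.06 (*Pcgf6*), 3.7 (*Hoxb4*), -2.15 (*Hoxa5*), 4.27 (*Tbx3*), 4.52 (*Ereg*) and 1.54 (*Nr3c1*). Guidance genes had 2.81 (*Plxna2*), -4.1 (*Sema3d*) and -4.49 (*Ephb6*), and markers of other cell types had 3.35 (*Lyz2*), 2.63 (*Clec14a*) and 2.67 (*Cdh5*).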

How the results depend on the processing

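The replicate block raised the counts to 3915 for the difference, 4602 for 67NR, 676 for 168FARN, 2687 in 67NR only, 165 in 168FARN only, 182 opposite and 328 over the gene lists. Without replicate 3 of every group they were 4540, 4927, 1386, 2635, 419, 360 and 382 (gene lists), and with DESeq2 and the block, chosen after seeing the data, 4077, 4495, 783, 2738, 190, 222 and 341. DESeq2 without the block gave 278 in 168FARN, 61 in 168FARN only and 70 opposite, and the 9 libraries of 168FARN alone gave 35 in 168FARN. An adjusted p under 0.05 without the fold threshold gave 21 in 168FARN only. Leaving out 1 library at a time gave 1051 to 1563 for the difference, 2028 to 3116 for 67NR, 68 to 139 for 168FARN, 898 to 1302 in 67NR only, 16 to 36 in 168FARN only, 16 to 29 opposite and 92 to 132 over the gene lists. Without 168FARN WT replicate 1, WT replicate 2, *Kmt2d* KO replicate 1 and *Kmt2d* KO replicate 2, 17, 16, 16 and 20 genes were in 168FARN only and 16, 19, 19 and 18 opposite. Without 67NR *Kmt2d* KO replicate 3, rich in *Rn45s*, the difference was called for 1368.

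Of 114 named genes 88 had a called difference, and all 88 kept it with the block, with DESeq2, with its size factors, without replicate 3 of every group and with *Rn45s* kept. An adjusted p under 0.05 without the fold threshold lost 10 of them, the 12 libraries alone 5, no low-count filter 2, and leaving out 1 library 2 to 9. Differences that turned sign on leaving out 1 library, none of them called, were *Ube2c* (-2.36 to 1.46), *Prc1* (-0.17 to 1.78), *Mki67* (-0.4 to 2.78, and -0.01 without 67NR *Kmt2d* KO replicate 3) and *Ccne2* (-0.11 to 3.71). The causes were not tested. The share of differences with the higher response in 67NR was 65.7%, and 57.1% with the block. Genes near 0 counts in 168FARN, which include most epithelial genes, limit what could be seen there.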
